A study of Mus musculus with 2 samples.

Results

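The small nucleolar RNAs (snoRNAs) U3, U8, U13, U14 and U17 were examined in the 2 melRNA-seq libraries of mouse brain. They were taken by name from the lists of RNA classes that the authors deposited, and make up 5 of the 60 classes that either list holds. All 5 were listed in the RppH(+) library and 4 of them in the RppH(−) library, where U8 was missing and counts as 0. The lists label all 5 as snRNA, the repeatmasker label for small nuclear RNA, although they act in the nucleolus.

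Total RNA came from the brain of adult male C57BL/6J mice and carried no other treatment. RNA for the RppH(−) library was left untreated, and RNA for the RppH(+) library was incubated for 1 h at 37 °C with RppH (RNA 5′ pyrophosphohydrolase), an enzyme that turns a capped or triphosphorylated 5′ end into a monophosphate to which an adaptor can be ligated. Each condition has 1 library, so no difference below has a replicate check, and each test on reads compares these libraries and not the conditions. Neither list holds an mRNA that could mark brain cells, so the labelled tissue could not be checked. Each level is an average over whole brain tissue, in which fewer cells of a type and less RNA per cell cannot be told apart.

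The deposited value of a class counts its reads for each 1000000 reads that 5.8S rRNA has in that library. 5.8S rRNA is cut from a longer precursor and has a monophosphate at its 5′ end with or without RppH. Whole reads were recovered from these values, giving 122146 reads of 5.8S rRNA without RppH and 83291 with RppH. The listed classes other than 5.8S rRNA held 1386 reads without RppH and 127701 with RppH. PCR can copy the same molecule into several reads, and all intervals therefore cover counting error only.

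SnoRNAs are nuclear RNAs that pair with ribosomal RNA precursors, and most of them guide the chemical modification of single nucleotides. Of the 5 classes here, U3, U8, U14 and U17 belong to the smaller set known for roles in the processing of the precursor, and U13 is known for a part in the acetylation of the small-subunit rRNA. They reach the cell by different routes. U3, U8 and U13 are transcribed from promoters of their own by RNA polymerase II and receive a cap, which is later hypermethylated to trimethylguanosine. U14 and U17 are released from spliced introns of host genes and trimmed by exonucleases, which leaves a monophosphate at the 5′ end. The comparison asks whether reads of the capped and of the intron-encoded snoRNAs responded differently to RppH. The cap itself was not measured in these libraries.

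The sequences of annotated genes are shown because their lengths bear on the size selection of the libraries and their letters on the family of each class. The grouping by route rests on background knowledge of these RNAs and not on the annotation, which also places 4 of the 5 U3 genes in introns. They are from GENCODE M21 on GRCm38, the assembly called mm10, are written 5′ to 3′ on the strand of the gene, and are given as DNA. Capitals mark the letters TGATGA, as found in the C box, the letters CTGA starting in the last 12 bases, as found in the D box, and the letters ACA ending 3 bases before the 3′ end, as found in the ACA box. Only the strand of the gene was searched, and copies of TGATGA may overlap. The capped classes U3 and U8 are shown first.
Rnu3a (U3): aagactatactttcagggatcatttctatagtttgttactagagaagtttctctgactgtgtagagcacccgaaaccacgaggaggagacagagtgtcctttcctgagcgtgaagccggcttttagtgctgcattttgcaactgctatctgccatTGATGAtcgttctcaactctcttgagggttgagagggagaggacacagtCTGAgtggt
Rnu3b1 (U3): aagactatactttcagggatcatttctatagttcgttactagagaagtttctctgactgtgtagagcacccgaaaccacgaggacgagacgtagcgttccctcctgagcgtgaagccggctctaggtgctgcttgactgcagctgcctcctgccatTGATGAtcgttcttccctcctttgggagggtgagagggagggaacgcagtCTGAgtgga
Snord118 (U8): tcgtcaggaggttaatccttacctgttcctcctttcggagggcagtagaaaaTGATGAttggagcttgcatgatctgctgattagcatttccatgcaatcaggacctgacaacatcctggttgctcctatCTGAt
The intron-encoded classes follow, with a U14 gene from each of its host genes and a U17 gene.
Snord14c (U14): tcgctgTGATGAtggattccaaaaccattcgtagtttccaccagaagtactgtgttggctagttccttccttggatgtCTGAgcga
Snord14a (U14): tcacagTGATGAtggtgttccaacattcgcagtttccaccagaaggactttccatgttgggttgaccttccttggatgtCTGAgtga
Snora73a (U17): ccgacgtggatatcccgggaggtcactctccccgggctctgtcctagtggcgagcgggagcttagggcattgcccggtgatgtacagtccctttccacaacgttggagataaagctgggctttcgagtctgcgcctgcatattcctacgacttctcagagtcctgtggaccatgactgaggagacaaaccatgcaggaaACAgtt

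Every annotated gene of U3, U8 and U14 held TGATGA and an end-proximal CTGA. In U14 the first TGATGA began at base 7, close to the 5′ end, whereas it began at base 53 in Snord118 and base 156 in Rnu3a, counted from 1 at the 5′ end. Neither U17 gene held these letters in these places, and both held ACA before the 3′ end. U17 is known as a box H/ACA snoRNA and U3, U8 and U14 as box C/D snoRNAs, so these letters separate the classes by family and not by the route of transcription. Of the 1507 snoRNA transcripts in GENCODE, 22.2% held TGATGA together with the end-proximal CTGA, and 18.3% held the ACA. In the first 86 and first 216 bases of the 32851 RefSeq promoter windows, TGATGA with CTGA near the end occurred in 0.103% and 0.265%, and the ACA in 1.75% and 1.44%. A match is a description of letters only.

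U3 has 5 annotated genes with names that link to it. Rnu3a lies at chr10:40258467-40258679 on the plus strand, inside no other gene of that strand. The genes Rnu3b1, Rnu3b2, Rnu3b3 and Rnu3b4 were identical over 215 bases and shared 85.6% of aligned bases with Rnu3a. They lie on chromosome 11 between 87443237 and 87471583, on the same strand as Tex14 and in introns of both of its transcripts that span them. Snord118, the U8 gene, lies at chr11:69073427-69073561 on the plus strand, 133 bases past the end of Tmem107 and outside any gene of its strand. The annotated U13 gene also lies outside any gene of its strand. For U14, the genes Snord14c, Snord14d and Snord14e lie in introns of Hspa8 on chromosome 9, at 40803583, 40803995 and 40804748, by 3 of the 4 Hspa8 transcripts that span each of them. The other U14 gene, Snord14a, lies in an intron of Rps13 at chr7:116333171-116333257, by 3 of 7 transcripts. Hspa8 encodes a constitutive heat shock protein and Rps13 a ribosomal protein. The U17 genes Snora73a, at chr4:132352775-132352979, and Snora73b, at chr4:132352322-132352526, lie in introns of Rcc1 and of the non-coding gene Snhg3. They shared 96.6% of aligned bases. Reads are listed by class and not by gene, so the copies cannot be told apart, and the part of U3 reads that came from the copies in Tex14 was not tested.

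The composition of snoRNA reads needs no denominator outside the snoRNAs, and it was almost inverted between the libraries. In the RppH(−) library, 384 of 388 snoRNA reads were of the intron-encoded U14 and U17, and 4 reads, or 1.03% (95% Wilson interval 0.402 to 2.62%), were of the capped U3, U8 and U13. In the RppH(+) library, the capped classes held 799 of 983 snoRNA reads, or 81.3% (78.7 to 83.6%). Intron-encoded reads were thus 96.0 times as many as capped reads without RppH, and capped reads were 4.34 times as many as intron-encoded reads with RppH. The odds of a capped read were 417 times as high in the RppH(+) library, by the sample odds ratio. The 95% exact interval of the conditional odds ratio was 157 to 1550, and a two-sided Fisher's exact test gave p = 1.1e-189. Here U8 counts as 0 reads without RppH. With U8 set to 3 reads, the capped share in that library was 1.79% (0.870 to 3.65%), from 7 reads beside 384 intron-encoded ones. The odds ratio was then 238 (111 to 604). The difference between these libraries was larger than counting error, and variation between libraries could not be measured.

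**Figure D1:**
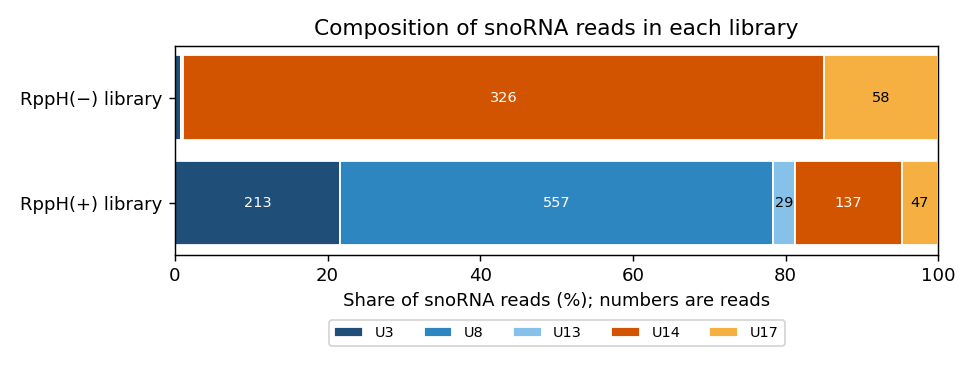
Share of the snoRNA reads (%, horizontal axis) that each class held in the RppH(−) library (388 reads) and the RppH(+) library (983 reads); blue shades are the capped classes, orange shades the intron-encoded ones, and the numbers are reads. U14 with 326 reads fills most of the upper bar, where the 3 reads of U3 and the 1 read of U13 are thin strips, and U8 with 557 reads fills most of the lower bar.

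The contrast did not rest on a single class. With each class left out in turn, the odds ratio ranged from 126 without U8 to 1223 without U3, and without U14 it was 246.5 (84.5 to 957). All of these alternatives kept the direction, with exact p-values of 3.2e-57 or lower.

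U3, which pairs with the leader of the precursor and is needed for the cuts that free the small-subunit rRNA, had 3 reads in the RppH(−) library and 213 with RppH. Its level was 24.6 per 1000000 5.8S reads in the untreated library (95% exact interval 5.06 to 71.8) and 2557 in the treated one (2225 to 2925). The intervals do not overlap. Relative to 5.8S rRNA, U3 rose 104-fold (exact interval 35.1 to 509, adjusted p = 9.3e-78 from Fisher's exact test), whereas relative to the listed reads other than 5.8S rRNA its ratio was 0.771 (adjusted p = 0.948, exact test). With RppH, most reads of that second denominator were of U2, which itself rose 423-fold relative to 5.8S rRNA.

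U8, which is required for the maturation of the large-subunit rRNA and of 5.8S rRNA itself, had 0 reads in the RppH(−) library and 557 with RppH. For ratios this 0 was set to 3 reads, a level of 24.6 per 1000000 5.8S reads, and the two-sided 95% exact interval of the level reaches 30.2. With RppH the level was 6687 (6142 to 7269), the highest of the 5 snoRNAs and rank 5 among the 48 listed classes other than 5.8S rRNA. U8 was 272-fold higher when the empty list entry is set to 3 reads. Tested at 0 reads, its exact interval begins at 221 (adjusted p = 1.5e-217, Fisher's exact test), and tested at 3 reads it begins at 92.7 (adjusted p = 8.9e-211). Relative to the listed reads other than 5.8S rRNA the ratio with 3 reads was 2.02 (0.686 to 9.83; exact test, adjusted p = 0.591), and U8 passed the threshold against that denominator only when tested at 0 reads (adjusted p = 0.0239, exact test).

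U13, which pairs with the small-subunit rRNA and is known to help its acetylation, had 1 read in the RppH(−) library and 29 with RppH. Its level was 8.19 per 1000000 5.8S reads in the untreated library (0.207 to 45.6) and 348 in the treated one (233 to 500.1). These intervals do not overlap either. U13 rose 42.5-fold relative to 5.8S rRNA (exact interval 7.05 to 1737, adjusted p = 4.6e-10 from Fisher's exact test), and against the listed reads other than 5.8S rRNA its ratio was 0.315 (adjusted p = 0.544, exact test). The single read without RppH leaves the size of the change poorly known, and with 3 reads in its place the ratio was 14.2.

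U14, which pairs with the small-subunit rRNA, is needed for its processing and guides a methylation on it, had 326 reads in the RppH(−) library and 137 with RppH. Its level was 2669 per 1000000 5.8S reads in the untreated library (2387 to 2975) and 1645 in the treated one (1381 to 1945). Without RppH it ranked 2 among the 32 listed classes other than 5.8S rRNA, where it held 23.5% of the reads. Relative to 5.8S rRNA, U14 fell to 0.616 of its level (0.501 to 0.755, adjusted p = 6.0e-06 from Fisher's exact test), and it was lower under each other denominator tried, by more.

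U17, which is needed for the early cuts in the precursor of the small-subunit rRNA, had 58 reads in the RppH(−) library and 47 with RppH. Its level was 475 per 1000000 5.8S reads in the untreated library (361 to 614) and 564 in the treated one (415 to 750.5). The intervals overlap over most of their width. The ratio was 1.19 (0.791 to 1.78; Fisher's exact test, adjusted p = 0.559), so a difference from 1 was not detectable at this depth. With all listed reads as the denominator it was lower, at 0.474 (adjusted p = 7.7e-04, exact test).

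**Figure D2:**
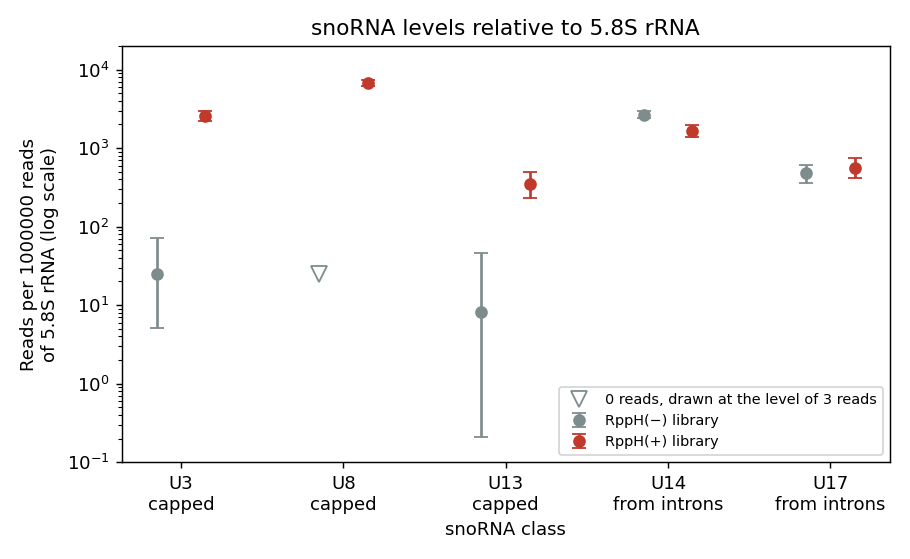
Level of each snoRNA class in reads per 1000000 reads of 5.8S rRNA (vertical axis, log scale) in the RppH(−) library (grey) and the RppH(+) library (red), 1 library each, with 95% exact intervals for counting error. U3 and U13 are separated by wide gaps, U8 is drawn at the level of 3 reads without RppH, and both points of U17 lie within each other's range.

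Relative to 5.8S rRNA, 3 of 3 capped snoRNAs were higher with RppH at an adjusted p under 0.05, against 22.0% of all 59 classes tested (relative to the listed reads other than 5.8S rRNA, U8 alone of the 3 was higher when tested at 0 reads, and none was with U8 at 3 reads). Of the intron-encoded snoRNAs, 0 of 2 were higher and 1 of 2, U14, was lower, against 1.69% of all classes. That share is U14 itself, the only class called lower, so it is no separate background. The median log2 ratio was 6.70 for the capped snoRNAs and −0.22 for the intron-encoded ones, beside 4.98 for the 20 classes with over 3 reads in a library, a filter that U3, U8 and U13 passed only through the RppH(+) library. Of these 20 classes, 13 were higher and 1 was lower. Pooled, the capped snoRNAs went from 4 to 799 reads, 293-fold relative to 5.8S rRNA (114 to 1078), and the intron-encoded ones from 384 to 184, a ratio of 0.703 (0.586 to 0.840). The pool counts U8 as 0 reads without RppH, which is why it lies above the ratio of each member. With U8 set to 3 reads, as for its own ratio, the pool was 167-fold higher (80.9 to 418).

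**Figure D3:**
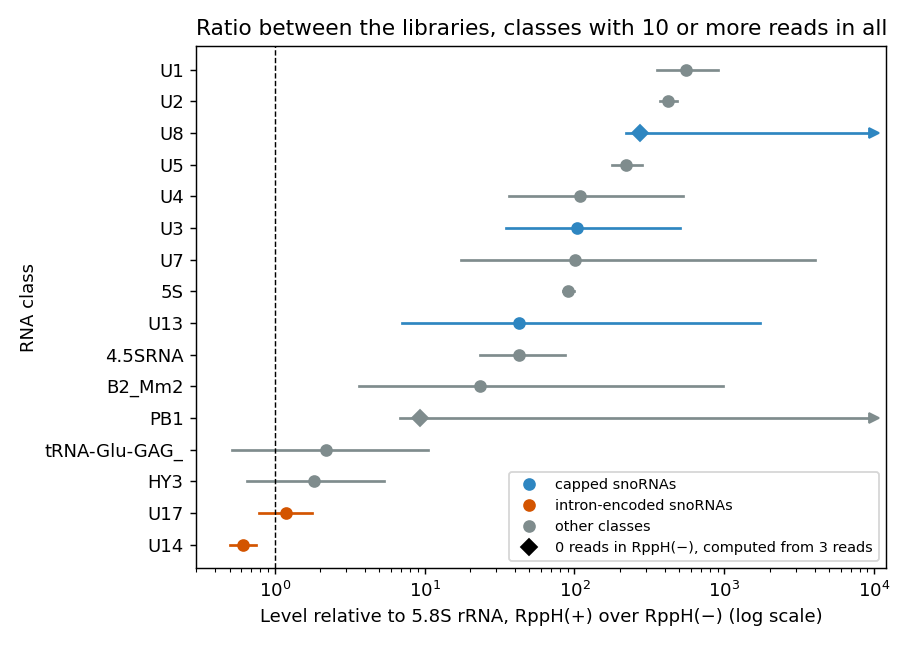
Ratio of the level relative to 5.8S rRNA, RppH(+) over RppH(−) (horizontal axis, log scale), for the listed classes with at least 10 reads in both libraries together and for U3, U8, U13, U14 and U17, with 95% exact intervals; arrows mark intervals with no upper limit, and a class at 0 is drawn at its ratio with 3 reads and the interval for 0 reads. The capped snoRNAs (blue) lie between 42.5 and 272 and the intron-encoded ones (orange) at 0.616 and 1.19, the lowest points drawn; against the listed reads other than 5.8S rRNA, U3 and U13 would lie below 1.

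The choice of denominator moves all classes by the same amount. Relative to all listed reads, each log2 ratio was 1.32 lower than relative to 5.8S rRNA, in raw reads 0.55 lower, and relative to the listed reads other than 5.8S rRNA 7.08 lower. The last of these denominators went from 1386 to 127701 reads. With RppH, U2 (69519 reads), 5S rRNA (37300), U5 (11645) and U1 (7543) were its largest classes. Relative to 5.8S rRNA they rose 423-, 90.9-, 222- and 553-fold themselves. A ratio to this denominator thus compares a snoRNA mostly with other classes that rose with RppH. U3, U8 and U13 together held 0.289% of its reads without RppH and 0.626% with RppH. U14 and U17 together held 27.7% without RppH and 0.144% with RppH. Differences between the snoRNA classes do not depend on this choice.

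**Figure D4:**
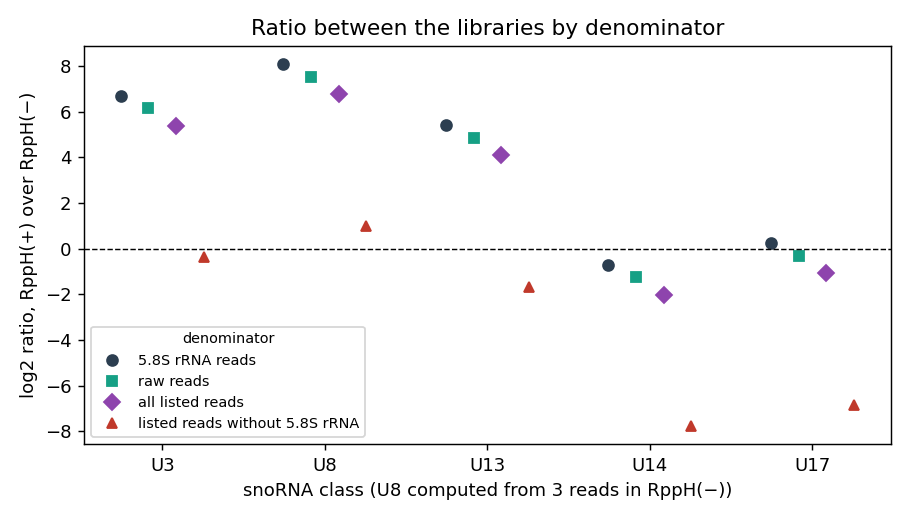
Log2 ratio between the libraries, RppH(+) over RppH(−), of each snoRNA class (horizontal axis) under 4 denominators: 5.8S rRNA reads, raw reads, all listed reads, and listed reads without 5.8S rRNA. U8 is above 0 and U14 below 0 throughout, U3 and U13 fall below 0 only with the last denominator, at −0.38 and −1.67, and U17 is above 0 only relative to 5.8S rRNA, at 0.25.

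Each pair of the 5 classes was then compared directly, by the reads of each class in each library. By a two-sided Fisher's exact test adjusted over all 1711 pairs of listed classes, 7 of the 10 pairs differed in their change at a threshold of 0.05, against 7.77% of all pairs. All 6 pairs of a capped with an intron-encoded class were among them. The smallest of these differences was between U13 and U17, where the change of U13 was 35.8 times that of U17 (exact interval 5.41 to 1486, adjusted p = 1.8e-06). With 3 reads in place of the single read of U13 it was 11.9 times, and with a pseudocount of 0.5 reads 24.2 times. The largest was between U8 and U14, 442 times when the 0 reads of U8 are set to 3. Its exact interval begins at 349 when tested at 0 reads and at 145 when tested at 3 reads.

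Between the intron-encoded classes, reads of U14 were 5.62 times as many as those of U17 without RppH (95% exact interval 4.24 to 7.57) and 2.91 times as many with it (2.08 to 4.15). U17 made up 15.1% of the intron-encoded reads without RppH and 25.5% with RppH. The change of U17 was 1.93 times that of U14 (1.22 to 3.04; Fisher's exact test, adjusted p = 0.0482), just inside the threshold. With U8 tested at 3 reads, which moves the adjustment over all pairs, the adjusted p of U17 against U14 was 0.0539 by the exact test, and 6 of the 10 pairs passed in place of 7.

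Among the capped classes, 0 of 3 pairs differed at an adjusted p under 0.05 by the same exact test, against 7.77% of all pairs. By that exact test 1 of 3, U8 with U3, had an unadjusted p under 0.05 (p = 0.0216). That p rests on the 0 reads of U8, at which the exact interval begins at 1.07 (adjusted p = 0.189). With U8 set to 3 reads its change was 2.62 times that of U3 (0.347 to 19.6; exact test, unadjusted p = 0.356), and 0 of 3 pairs had an unadjusted p under 0.05. The change of U3 was 2.45 times that of U13 (0.0451 to 31.5), or 7.34 times with 3 reads in place of the single read of U13. With 3 reads in place of 3 or fewer in every class, U8 and U13 differed, by 19.2 times (exact test, adjusted p = 0.0108). With 4 capped reads in the RppH(−) library, these intervals are wide, and they do not show that the 3 classes changed alike.

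The order of the classes by reads was also different. Without RppH it was U14, U17, U3, U13 and U8, in which U3 and U13, with 3 reads and 1 read, and U13 and U8, with 1 read and 0 reads, could not be told apart by counting error. With RppH it was U8, U3, U14, U17 and U13. There, U8 had 2.62 times the reads of U3 (2.23 to 3.08) and U3 had 1.55 times those of U14 (1.25 to 1.94). U17 had 1.62 times the reads of U13, with an interval from 0.999 to 2.67 that reaches 1. Per 100 nt of gene length, the RppH(+) library held 413 reads of U8, 158 of U14, 99.1 of U3, 27.9 of U13 and 22.9 of U17, so U3 and U14, and also U13 and U17, change places on that scale. A read in this method spans a whole RNA, and reads were therefore left undivided elsewhere.

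Within the capped group of the RppH(+) library, U8 held 69.7% of the reads (66.4 to 72.8%), U3 26.7% (23.7 to 29.8%) and U13 3.63% (2.54 to 5.16%). U8 had 0 of 388 snoRNA reads without RppH, where 3 reads would be a share of 0.773% and the Wilson interval reaches 0.980%, while its share with RppH was 56.7% (53.5 to 59.7%).

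The libraries had been cut from a gel at an insert size of 113–253 bp, and the labels describe RNAs of 115–255 nt. The annotated U3 genes are 213 to 216 nt long, the U8 gene 135 nt and both U17 genes 205 nt, all inside that range. The U14 genes, at 86 to 90 nt, and the U13 gene, at 104 nt in GENCODE and 98 nt in RefSeq, are shorter than the smallest insert. U14 nevertheless held the most snoRNA reads without RppH. The lengths of the reads are not in the lists, and the part of the size selection in the values of U13 and U14 was not tested. Without U13 and U14, capped reads were 3 of 61 without RppH and 770 of 817 with it, an odds ratio of 317 (95.8 to 1608).

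**Figure D5:**
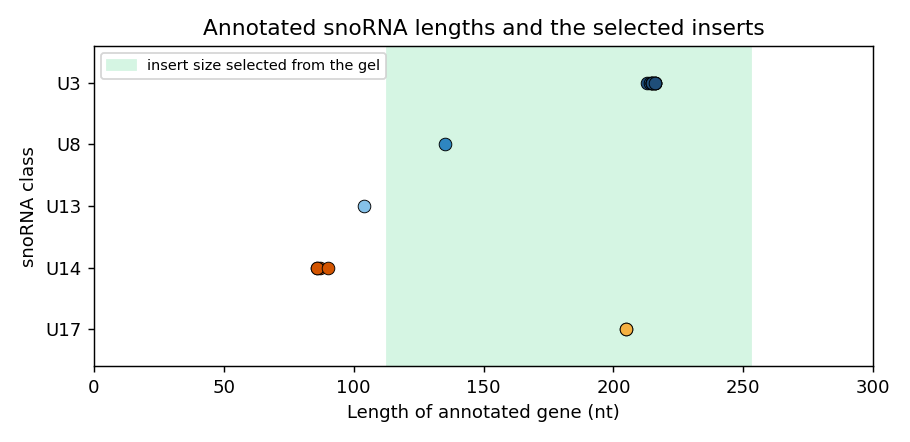
Length in nt (horizontal axis) of the annotated GENCODE genes of each snoRNA class, 1 point per annotated gene, over the insert size selected from the gel (green band, 113 to 253). U3, U8 and U17 lie inside the band, and U13 at 104 and U14 at 86 to 90 lie below it.

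The capped snoRNAs were set beside capped RNAs of the spliceosome and of histone mRNA processing, the RNA polymerase II snRNAs U1, U2, U4, U5 and U7. The listed snRNA U6 was outside this set and had 6 reads without RppH and 1 with it. Its ratio relative to 5.8S rRNA was 0.244 (Fisher's exact test, adjusted p = 0.544). All 5 snRNAs of the set, with a median log2 ratio of 7.79, were higher with RppH relative to 5.8S rRNA, against 22.0% of all 59 classes. Of the 15 pairs of a capped snoRNA with one of these snRNAs, 0 differed in their change by Fisher's exact test with adjustment, against 7.77% of all 1711 pairs. An unadjusted p under 0.05 was found for 3 of the 15, namely U3 with U1, U3 with U2 and U8 with U4. The last of these rests on the 0 reads of U8, and with 3 reads its p was 0.361 by the exact test. The change of the pooled capped snoRNAs was 0.692 of that of U2 (0.266 to 2.57) and 0.530 of that of U1 (0.177 to 2.14). It was 1.32 times that of U5 (0.494 to 4.98), 2.71 times that of U4 (0.394 to 16.1) and 2.89 times that of U7 (0.0580 to 29.7). All 5 intervals reach to both sides of 1. With U8 set to 3 reads in the pool, however, those for U1 (0.303, 0.122 to 0.850) and U2 (0.396, 0.188 to 0.998) lay below 1, and the value for U5 was 0.755 (0.348 to 1.95). In contrast, all 10 pairs of an intron-encoded snoRNA with a capped snRNA differed, against the same 7.77% of all pairs. The change of U14 or U17 was between 0.00111 and 0.0117 of that of the snRNA.

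By log2 ratio relative to 5.8S rRNA, the classes nearest to the pooled capped snoRNAs (8.19) were U5 (7.79) and U2 (8.72), among classes outside the snoRNAs with at least 10 reads. With U8 set to 3 reads the pool was at 7.39, and the nearest were U5 and U4 (6.76). Nearest to the pooled intron-encoded snoRNAs (−0.51) were the Y RNA HY3 (0.87), with 8 and 10 reads, and tRNA-Glu-GAG_ (1.14), with 4 and 6 reads. With U8 at 0, the distance was 0.40 for U5 and 0.53 for U2, and it was 1.38 for HY3 and 1.65 for tRNA-Glu-GAG_, each measured over 1 library per condition.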

How the data were processed

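For each brain library the authors deposited a normalized score for each RNA class, its reads per 1000000 reads of 5.8S rRNA, written as whole numbers. They had trimmed adaptors with cutadapt, discarded reads that lacked one, and annotated the rest with repeatmasker, whose library they supplemented with 5.8S rRNA; versions are not given in the sources used here. Their filters for 5.8S rRNA are stated in the methods, and those for snoRNA reads are not.

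The design assumed that whole reads could be recovered. Totals of 5.8S rRNA from 1000 to 400000 were tried, with decimals taken as dropped. The lowest totals at which all 82 deposited values were whole reads (no tolerance) were 122144 to 122149 for RppH(−), of which 122146 was used, and 83291 for RppH(+). Of the totals tried, 36 and 4 were possible in all, the others near multiples of the lowest, at which every class would hold a multiple of 2, 3 or 4 reads. The lowest were used; intervals and p-values rest on this choice. The procedure and tests were tested on simulated data. For the tests, the simulated classes were expected to hold more reads than U3, U8 and U13 have without RppH. The tests were thus not checked at so few reads.

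Fisher's exact test (two-sided, SciPy 1.17.1, Python 3.11.15) compared reads of a class and of 5.8S rRNA between libraries, Benjamini-Hochberg adjusted over 59 classes, and pairs of classes, adjusted over 1711 pairs. Intervals (95%) are of the conditional odds ratio, exact binomial for levels and ratios within a library, and Wilson for shares. A class at 0 was set to 3 reads for the ratios of single classes and pairs only: tests, their intervals and pools use the reads as recovered, so those of U8 rest on 0 reads unless stated, and classes with 1 to 3 reads were used as they are, which departs from the design. The count of classes past 2-fold that the design named is left out, since its filter passed the capped snoRNAs only through the RppH(+) library. All 5 snoRNA classes were named, with 5.8S rRNA, the capped snRNAs U1, U2, U4, U5 and U7, and the 2 classes nearest in log2 ratio to each pooled group. The alternatives were other denominators, a pseudocount of 0.5 reads, 3 reads in place of 3 or fewer, U8 at 3 reads in the pools and tests, the deposited values, reads per gene length, classes left out, and a minimum of 10 reads. Genes were linked by name in RefSeq (GRCm38.p6) and GENCODE M21, and copies aligned with Biopython 1.88. Figures were drawn with Matplotlib 3.10.9. The classes and lists were chosen with earlier results of these data known. The sequence of the U13 gene is not reported here. The spermatogonia libraries were not analysed here.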

Additional observations from a re-analysis of the deposited data

How the results depend on the processing

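Of 74 values recomputed under an alternative, 39 had a p of their own, and 32 of these kept their direction and side of the threshold. The other 35 had none, and 28 of these were counted as unchanged. A value with an interval had to stay inside it, and counts of classes, which have no interval, were among the 28. Some alternatives could not move the value, and these were counted as kept or unchanged. With 3 reads in place of 3 or fewer, the ratios of U3, U8, U14 and U17 stay as they were. Leaving out U8 removes 0 reads from the RppH(−) library. Relative to the listed reads other than 5.8S rRNA, the ratios of U3 (0.771), U13 (0.315) and U17 (0.00880) turned below 1; that denominator lowers every ratio by the same factor. U17 was also below 1 relative to all listed reads (0.474) and in raw reads (0.810). The capped share of snoRNA reads moved without U14, to 6.45% without RppH and 94.4% with it, and without U14 and U13, chosen after seeing the data, to 4.92% and 94.2%. In the RppH(+) library it was 56.8% without U8 and 74.8% per gene length, and in the RppH(−) library it was 0.578% per gene length. Relative to all listed reads, 4 classes were lower in place of 1, namely U14, U17, U6 and tRNA-Tyr-TAC. With 3 reads in place of 3 or fewer, the setting that the design had named, U13 was at 14.2, and with a pseudocount of 0.5 reads U8 was at 1635. With U8 at 3 reads in the test, its ratio of 2.02 to the listed reads other than 5.8S rRNA no longer passed. The pools and tests with U8 at 3 reads were added after seeing the data. For U8 the deposited values give no ratio, because it is not listed without RppH. The 4 capped reads of the RppH(−) library limit every statement on the size of their change. No paired analysis was possible because a single library stands for each condition.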
